A study of Mus musculus with 6 samples.

Results

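The Fc gamma receptors and the ITAM signalling genes that act with them were followed in mouse liver as 7 genes chosen by symbol, namely Fcgr1, Fcgr2b, Fcgr3, Fcgr4, Fcer1g, Tyrobp and Syk. All 7 were among the 24982 genes of the deposited tables, and all 7 passed the filter on low counts that left 12949 genes for testing. The 6 libraries came from livers of male C57BL/6NJ mice, 3 fed a high fat and high sugar diet and 3 fed chow, each for 54 weeks. The high fat diet was given with sugar water, and the labels name no transgene, no other treatment and no age. Polyadenylated RNA was sequenced from whole liver, so every value is an average over all cells of the organ. The labels give replicates 1 to 3 of each diet but do not say that each came from a separate animal, so p-values measure the spread between these libraries. In bulk tissue, fewer cells of a type and less RNA per cell cannot be told apart, nor can more cells and more RNA per cell.

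Fc gamma receptors bind the constant part of IgG and let leukocytes recognise antibody-coated particles and immune complexes. Fcgr1, Fcgr3 and Fcgr4 encode activating receptors that depend on the common gamma chain encoded by Fcer1g, whose cytoplasmic tail carries an immunoreceptor tyrosine-based activation motif (ITAM), a pair of tyrosines that are phosphorylated by Src family kinases and then dock the kinase Syk. Tyrobp encodes DAP12, a second ITAM adaptor used by other myeloid and NK cell receptors, and Fcgr2b encodes the inhibitory IgG receptor, whose tail carries an inhibitory motif (ITIM) that recruits the lipid phosphatase encoded by Inpp5d. In liver, Kupffer cells and infiltrating myeloid cells carry the activating receptors, whereas sinusoidal endothelial cells are a known major site of the inhibitory one.

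The sequences that separate these roles are short. The stretches below were read from GENCODE transcripts on GRCm38, 5′ to 3′ on the coding strand, with the codons of the motif tyrosines in capitals, and are shown because they define which members signal through an activating or an inhibitory motif. The Fcer1g stretch encodes residues 65 to 79 of 86 and lies within chr1:171229889-171230072 on the minus strand, across exons 4 and 5. The Tyrobp stretch encodes residues 92 to 106 of 114 and lies within chr7:30415670-30417382 on the plus strand, also across exons 4 and 5, so both spans include an intron that is left out. The Fcgr2b stretch lies at chr1:170961071-170961088 on the minus strand and was the same in the 4 coding transcripts.
Fcer1g ITAM: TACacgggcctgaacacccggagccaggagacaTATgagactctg
Tyrobp ITAM: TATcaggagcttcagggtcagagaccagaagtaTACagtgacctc
Fcgr2b ITIM: atcaccTACtcacttctc

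Of the members, the 3 activating IgG receptors, both ITAM adaptors and Syk were higher in high fat high sugar livers than in chow livers, by 3.46-fold to 4.69-fold, and the inhibitory receptor Fcgr2b, at 1.15-fold, did not pass the test. That is 6 of 7 members higher and 0 lower, in edgeR's quasi-likelihood test at a Benjamini-Hochberg adjusted p below 0.05, where 11.0% of all tested genes were higher and 3.61% were lower. Those shares stand for 1428 and 468 genes, and scaling by library size alone gave 1925 and 200, with the same 6 members higher. The same 6 members had all 3 high fat high sugar libraries above all 3 chow libraries, which 21.5% of all tested genes had, and no member had them all below, as 18.0% of all tested genes did. The median log2 fold change of the 7 members was 2.02, against -0.02 over all tested genes.

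Library facts bear on how firmly these values stand. Reads counted in genes ran between 16565335 and 20585366 per library, and a count of 3 corresponds to 0.115 to 0.202 CPM (a gene's reads relative to the size of its library, after TMM normalisation). The first principal component of all tested genes held 70.7% of the variance and separated the diets. Within the high fat high sugar diet, replicate 2 stood farthest out on that component, at 78.2 against 31.9 and 26.2 for replicates 1 and 3. The lowest correlation with another library of the diet was 0.957 for replicates 2 and 3 and 0.961 for replicate 1. Replicate 2 also had the highest value of that diet for 6 of the 7 members, so each fold change is given with and without it.

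Among the activating receptors, Fcgr1 encodes the high-affinity IgG receptor and lies at chr3:96282909-96293969 on the minus strand. It was counted at 9.03, 21.6 and 9.38 CPM in high fat high sugar libraries 1, 2 and 3, against 3.95, 2.09 and 2.49 CPM in chow libraries 1, 2 and 3. Every high fat high sugar library was above every chow library, and replicate 2 was far above the other two. The means were 13.3 ± 7.14 CPM in high fat high sugar livers and 2.84 ± 0.978 CPM in chow livers (SD, n = 3 each). The log2 fold change was 2.23 ± 0.42 (SE; 95% interval 1.24 to 3.22), with an adjusted p of 0.0188 in edgeR's quasi-likelihood test, and 1.70 without high fat high sugar replicate 2.

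Fcgr3, the low-affinity activating receptor, lies at chr1:171051174-171064935 on the minus strand. It had 19.3, 42.8 and 17.5 CPM in high fat high sugar libraries, against 7.73, 5.22 and 6.33 CPM in chow libraries. The diets did not overlap, and again 1 library was far above the rest. The log2 fold change was 2.05 ± 0.38 (SE; adjusted p = 0.0185, edgeR quasi-likelihood test), or 1.52 without that library. Of the 50-base words in Fcgr3 transcripts, 10.2% also occur in Fcgr2b transcripts, and these made up 4.48% of the words of Fcgr2b. With every other gene counted, 6.72% of the words of Fcgr2b were shared. A part of the reads of Fcgr3 and of Fcgr2b could thus have been left out or assigned to another gene. The other 5 members shared no such word with any gene.

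Fcgr4, an activating receptor that binds mouse IgG2 subclasses with intermediate affinity, lies at chr1:171018920-171029761 on the plus strand. It had 13.3, 23.5 and 15.1 CPM in high fat high sugar libraries, against 6.73, 2.58 and 5.45 CPM in chow libraries. The groups were apart, although chow libraries 1 and 2 differed from each other more than for Fcgr3. Its log2 fold change was 1.82 ± 0.37 (SE; adjusted p = 0.0218, edgeR quasi-likelihood test), a 3.53-fold difference, and it was 1.54 without high fat high sugar replicate 2.

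Fcgr2b, the inhibitory receptor, lies at chr1:170958617-170976547 on the minus strand. Its values were 43.3, 45.5 and 53.9 CPM in high fat high sugar libraries, against 37.1, 46.4 and 41.0 CPM in chow libraries. The diets overlapped, and high fat high sugar replicate 2, which led for the other 6 members, sat between the other two libraries of its diet here. The means were 47.6 ± 5.57 CPM in high fat high sugar livers and 41.5 ± 4.68 CPM in chow livers (SD, n = 3 each). The log2 fold change of 0.20 ± 0.13 (SE) had an adjusted p of 0.342 in edgeR's quasi-likelihood test, and it was 0.23 without high fat high sugar replicate 2. As a fold, its 95% interval ran from 0.927 to 1.42, which does not reach the fold of any of the other 6 members. An antisense gene, Gm38204, overlaps the start of Fcgr2b on the opposite strand at chr1:170973373-170977746; the library kit keeps strand, but the strand setting of the counting is not given in the sources used here.

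**Figure D1:**
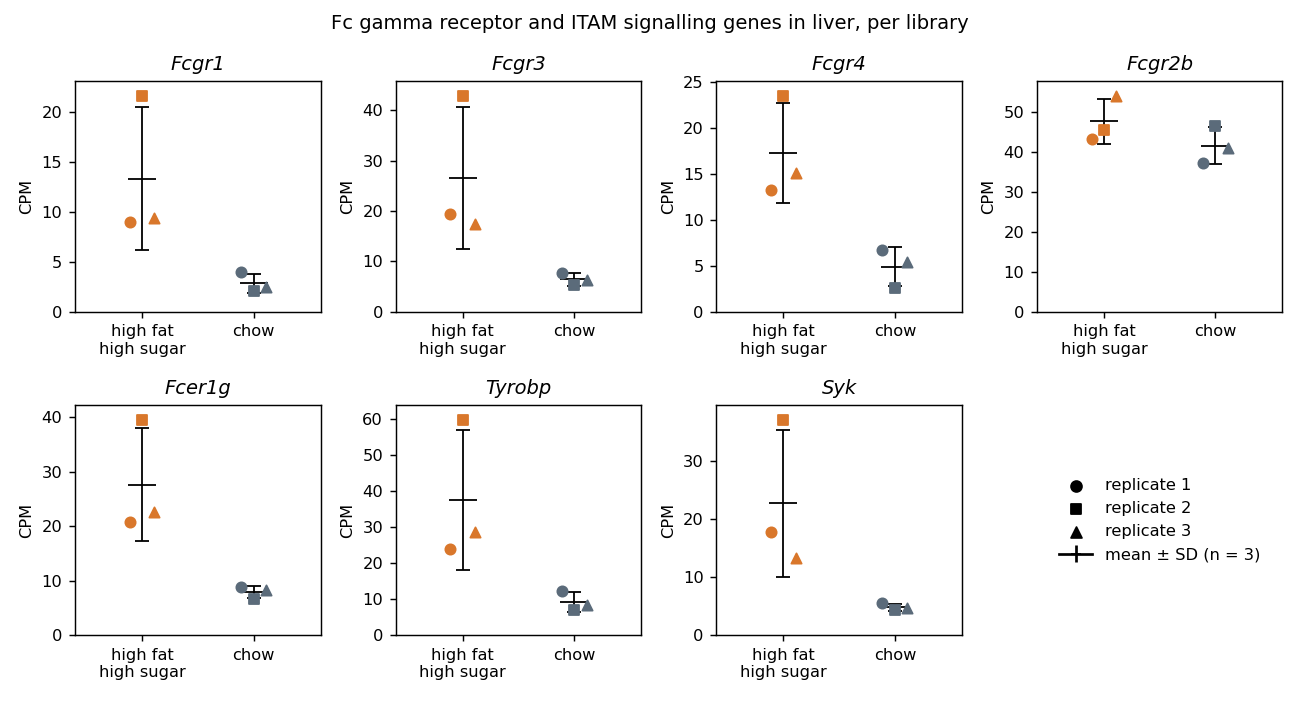
CPM of each of the 7 genes in every library, with high fat high sugar left of chow; symbols mark the replicate, and the bar is the mean ± SD of 3 libraries. Fcgr1 and the other members except Fcgr2b have all high fat high sugar libraries above all chow libraries, whereas the Fcgr2b values of 43.3 to 53.9 in high fat high sugar libraries and 37.1 to 46.4 in chow libraries overlap.

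Both adaptors were higher in high fat high sugar livers. Fcer1g, the common gamma chain, lies at chr1:171229572-171234365 on the minus strand and had 20.8, 39.5 and 22.6 CPM in high fat high sugar libraries, against 8.95, 6.76 and 8.28 CPM in chow libraries. Its chow values were close together and all were far below the lowest high fat high sugar library. In the test, the log2 fold change was 1.79 ± 0.27 (SE; adjusted p = 0.0117, edgeR quasi-likelihood test), with the smallest standard error of the 6 members that were higher, and it was 1.45 without high fat high sugar replicate 2.

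Tyrobp, which encodes DAP12, lies at chr7:30413760-30417585 on the plus strand. It had 24.0, 59.8 and 28.8 CPM in high fat high sugar libraries, against 12.4, 6.92 and 8.55 CPM in chow libraries. All high fat high sugar libraries were above the chow libraries, and chow replicate 1 was the highest of its diet. Its log2 fold change was 2.02 ± 0.40 (SE; adjusted p = 0.0225, edgeR quasi-likelihood test), or 1.51 without high fat high sugar replicate 2.

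Syk, the kinase that binds phosphorylated ITAMs, lies at chr13:52583173-52648792 on the plus strand. It had 17.8, 37.0 and 13.2 CPM in high fat high sugar libraries, against 5.50, 4.29 and 4.71 CPM in chow libraries. The chow libraries lay within a narrow range and the high fat high sugar libraries did not. The log2 fold change was 2.23 ± 0.39 (SE; adjusted p = 0.0163, edgeR quasi-likelihood test), a 4.69-fold difference, or 3.22-fold without high fat high sugar replicate 2.

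The count of 6 rested on the chow libraries. Leaving out chow replicate 1 or any 1 high fat high sugar library kept all 6 members past the threshold, and 9.42% of the genes tested were higher when high fat high sugar replicate 2 was the one left out. Without chow replicate 2, only Fcgr4 and Fcer1g passed in edgeR's quasi-likelihood test, with adjusted p of 0.0482 and 0.0477; over all genes that fit called 345 genes higher and 113 lower, against 1428 and 468 with all libraries. Without chow replicate 3, 0 members passed, with adjusted p between 0.0619 and 0.0962 and with all 6 at an unadjusted p below 0.05; over all genes that fit called 4 genes higher and 2 lower. The log2 fold changes themselves stayed between 1.45 and 2.54 for the 6 members over the 6 fits that each left out 1 library.

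**Figure D2:**
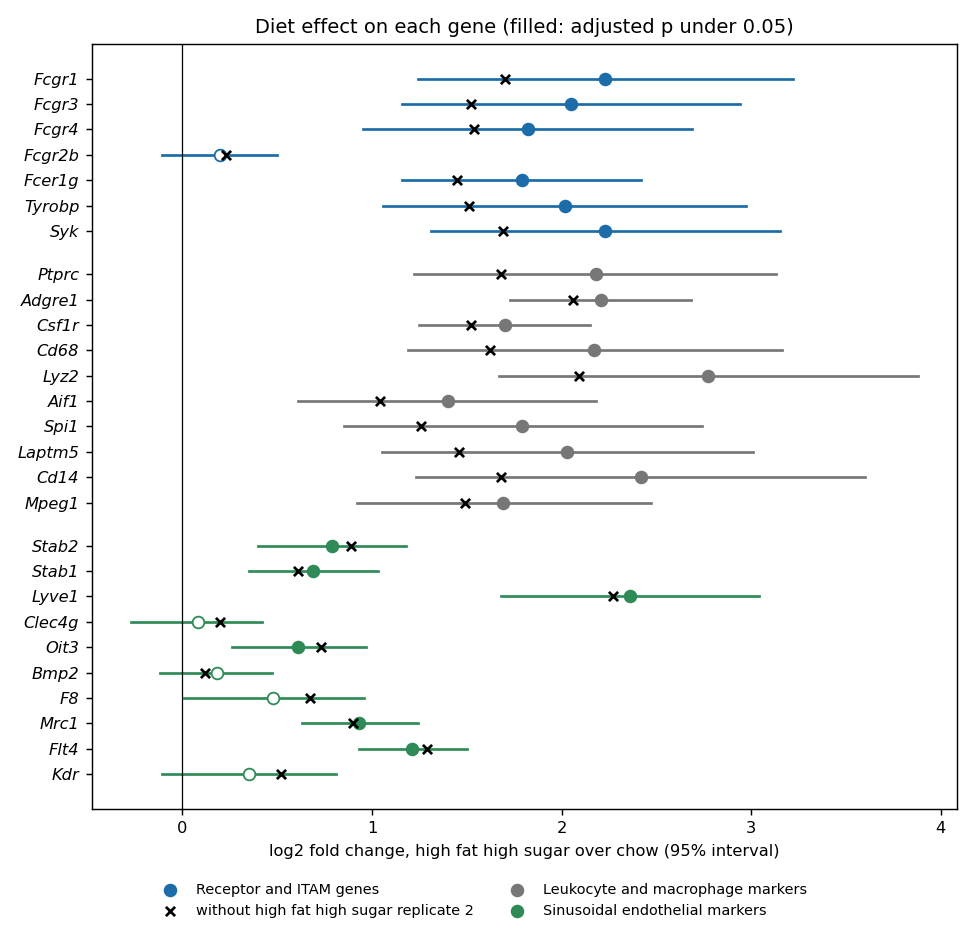
Log2 fold change, high fat high sugar over chow, with its 95% interval for the 7 genes, for 10 leukocyte and macrophage markers and for 10 sinusoidal endothelial markers; filled points have an adjusted p below 0.05 and crosses leave out high fat high sugar replicate 2. Fcgr2b at 0.20 lies among the endothelial markers with the smallest changes, and the other 6 genes, at 1.79 to 2.23, lie within the 1.40 to 2.77 spanned by the leukocyte and macrophage markers.

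High fat high sugar replicate 2 was higher than the mean of the other two libraries of its diet by a similar factor for most members. The factor was 2.34 for Fcgr1, 2.33 for Fcgr3, 2.27 for Tyrobp and 2.39 for Syk, and it was lower for Fcer1g at 1.82 and Fcgr4 at 1.65. For Fcgr2b it was 0.937, close to the median of 0.985 over 10651 genes with a mean count of at least 50, of which 10.2% reached 1.5. Ptprc, which encodes the pan-leukocyte marker CD45, had a factor of 2.27, and the macrophage gene Lyz2 had 2.86. Adgre1, which encodes the macrophage marker F4/80, and Csf1r, the receptor for macrophage colony-stimulating factor, had factors of 1.34 and 1.43.

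Ratios within a library need no scaling, and they set the members against each other. The summed counts of Fcgr1, Fcgr3 and Fcgr4 over the count of Fcgr2b gave ratios of 0.961, 1.93 and 0.779 in high fat high sugar libraries, against 0.496, 0.213 and 0.348 in chow libraries. Every high fat high sugar library had a higher activating to inhibitory ratio than every chow library, a 3.40-fold difference of the geometric means. The mean difference was 1.77 on the log2 scale, and it was 1.38 without high fat high sugar replicate 2. The exact permutation test gave a two-sided p of 0.1, which is the smallest that 3 against 3 libraries allow, and 0.150 after Benjamini-Hochberg adjustment over the 3 ratios tested this way.

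The 2 adaptors kept a more even ratio. Counts of Fcer1g over Tyrobp were 0.866, 0.659 and 0.785 in high fat high sugar libraries, against 0.722, 0.976 and 0.969 in chow libraries. These overlapped, with a log2 difference of -0.20 and a two-sided p of 0.300 in the exact permutation test, adjusted 0.300 over the 3 ratios.

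Relative to Ptprc, the 6 members that were higher showed overlapping diets. The log2 difference of the ratio, high fat high sugar minus chow, was 0.06 for Fcgr1, -0.16 for Fcgr3, -0.21 for Fcgr4, -0.36 for Fcer1g, -0.16 for Tyrobp and -0.00 for Syk. Fcgr2b over Ptprc was instead 1.24, 0.631 and 1.88 in high fat high sugar libraries, against 3.06, 6.76 and 3.71 in chow libraries, a log2 difference of -1.90 with no overlap. These ratios to single markers were described and not tested.

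The summed counts of all 7 members over those of the 10 leukocyte and macrophage markers were 0.170, 0.180 and 0.227 in high fat high sugar libraries, against 0.243, 0.373 and 0.339 in chow libraries. The difference was -0.72 on the log2 scale, with a two-sided p of 0.1 in the exact permutation test, adjusted 0.150 over the 3 ratios. With Fcgr2b left out, a choice made after seeing the data, the difference was -0.04 and the diets overlapped. With all 7 members kept and Lyz2 left out of the markers, also unplanned, the difference was -0.56 (two-sided p = 0.200, exact permutation test). Fcgr2b had the largest count of the 7 in every chow library.

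Set against the sum of 10 sinusoidal endothelial markers and against Stab2, Fcgr2b gave lower ratios in all 3 high fat high sugar libraries. Its count over the summed counts of the 10 markers was 0.0928, 0.106 and 0.111 in high fat high sugar libraries, against 0.144, 0.144 and 0.144 in chow libraries. Over Stab2, which encodes an endothelial scavenger receptor, it was 0.535, 0.628 and 0.550 in high fat high sugar libraries, against 0.924, 0.812 and 0.858 in chow libraries. Both ratios were without overlap, with log2 differences of -0.48 and -0.60, and neither was tested. The markers differed among themselves, so these ratios depend on the markers used. On the log2 scale, Lyve1 and Flt4 were higher by 2.36 and 1.21. Clec4g and Bmp2, at 0.08 and 0.18, were not called and lay near Fcgr2b at 0.20.

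**Figure D3:**
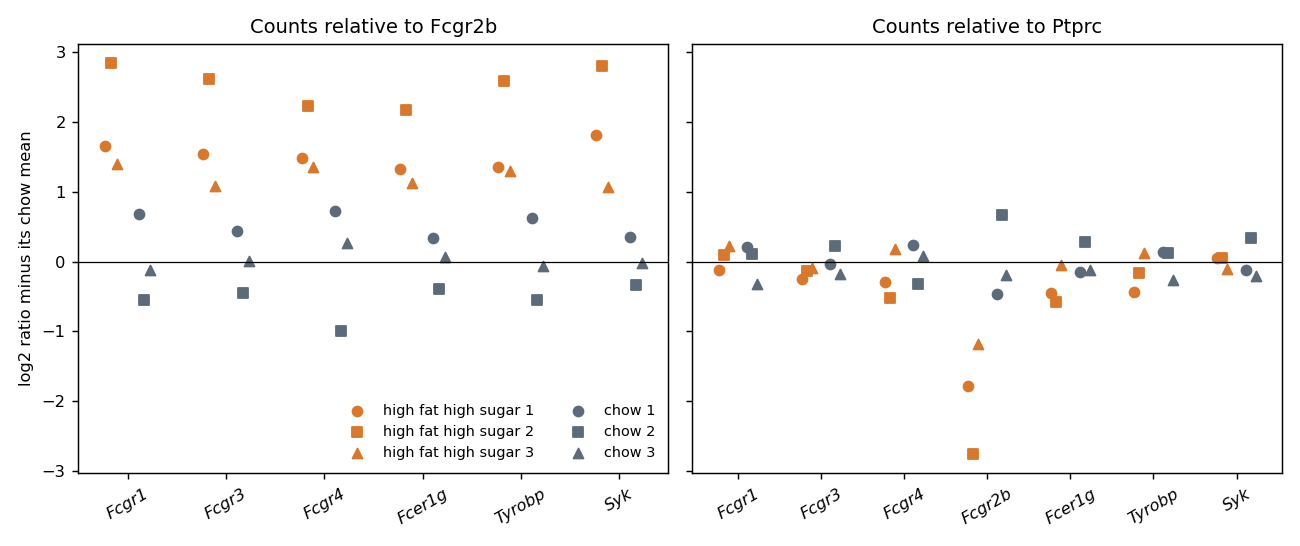
Log2 ratio of each gene's count to that of Fcgr2b (left) and to that of Ptprc (right) in every library, minus the mean of the 3 chow libraries for that ratio; high fat high sugar libraries stand left of chow libraries. Against Fcgr2b all 6 genes separate the diets, and against Ptprc the diets overlap for those 6 genes while Fcgr2b is lower by 1.90.

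Dividing counts by the length of each gene's exons allows levels of different members to be compared. Fcgr2b held, of the 4 IgG receptors, 22.9%, 13.2% and 26.6% of the length-corrected counts in high fat high sugar libraries, against 36.1%, 57.7% and 44.2% in chow libraries. Its mean share was 20.9% ± 6.90 in high fat high sugar livers and 46.0% ± 10.9 in chow livers (SD, n = 3 each), without overlap. Fcgr3 held 34.7% ± 6.34 in high fat high sugar livers and 23.2% ± 1.75 in chow livers, and Fcgr1 held 11.7% ± 2.02 in high fat high sugar livers and 6.80% ± 1.55 in chow livers. The Fcgr4 share was 32.8% ± 1.48 in high fat high sugar livers and 24.0% ± 8.13 in chow livers, and the low value of chow replicate 2 at 14.8% widened the chow spread. With the longest coding transcript as the length instead, the Fcgr2b share was 27.6% in high fat high sugar livers and 55.0% in chow livers.

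**Figure D4:**
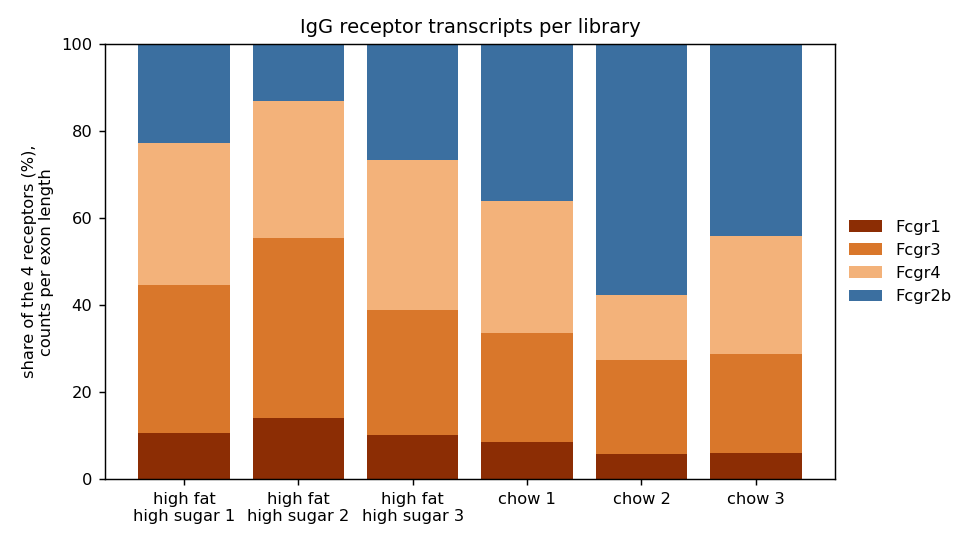
Share of each IgG receptor gene among the 4, in percent of counts divided by exon length, for each library, with the high fat high sugar libraries on the left. The Fcgr2b part, drawn on top, is 13.2% to 26.6% in high fat high sugar libraries and 36.1% to 57.7% in chow libraries.

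On the scale of mean CPM per kilobase of exon, the order in high fat high sugar livers was Tyrobp at 56.3, Fcer1g at 31.6, Fcgr3 at 15.3, Fcgr4 at 13.8, Fcgr2b at 8.22, Fcgr1 at 5.15 and Syk at 2.42. In chow livers it was Tyrobp at 13.9, Fcer1g at 9.15, Fcgr2b at 7.17, Fcgr4 at 3.92, Fcgr3 at 3.70, Fcgr1 at 1.1 and Syk at 0.516. Fcgr2b thus held rank 5 in high fat high sugar livers and rank 3 in chow livers. In high fat high sugar livers, Fcgr4 and Fcgr2b were the only neighbours in the order whose ranges over libraries were apart. Compared within each library, Tyrobp was also above Fcer1g, Fcer1g above Fcgr3 and Fcgr1 above Syk in all 3 libraries of that diet. Fcgr3 was above Fcgr4, and Fcgr2b above Fcgr1, in 2 of the 3. In chow livers, the ranges of Fcer1g and Fcgr2b overlapped, as did those of Fcgr4 and Fcgr3, and the other neighbours were apart. With the longest coding transcript as length, Fcgr2b and Fcer1g both came to 11.7 in chow livers and the ranges of Fcgr4 and Fcgr2b overlapped in high fat high sugar livers, so those orders depend on the length used.

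Fcgr2b, Fcgr4 and Fcgr3 lie side by side on chromosome 1 within 106319 bases, so a gene with no called change and 2 members that rose share 1 stretch of the genome. Fcer1g lies farther along the same chromosome. Of 15 other genes tested in the stretch from Atf6 to Dedd that holds these 4 members, 1 was higher and 0 lower, where 11.0% of all tested genes were higher. Those not called included Atf6 at a log2 fold change of 0.04, Dusp12 at -0.01, Cfap126 at -0.24, Sdhc at -0.33, Apoa2 at -0.55, Tomm40l at 0.52 and Pcp4l1 at 1.48. Nr1i3, which encodes the nuclear receptor CAR, was at -0.92, with all high fat high sugar libraries below all chow libraries and an adjusted p of 0.0799 in edgeR's quasi-likelihood test. Adamts4, a matrix protease gene, was the 1 that was higher in high fat high sugar livers. Its log2 fold change was 2.77, with an adjusted p of 0.0110 in edgeR's quasi-likelihood test. Its levels were low, at 1.14, 1.77 and 1.17 CPM in high fat high sugar libraries against 0.222, 0.220 and 0.135 CPM in chow libraries. It thus passed the filter on low counts through the high fat high sugar libraries.

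Promoter windows of the 4 IgG receptors are shown because 3 of these genes were higher together and 1 was not called. Each runs from 250 bases before to 50 bases after the first RefSeq start listed for the gene (RefSeq, GRCm38.p6), 5′ to 3′ on the gene's own strand, with capitals for the hexamer GAGGAA on either strand. This hexamer is a core sequence bound by PU.1, the myeloid transcription factor encoded by Spi1, whose own log2 fold change was 1.79. The windows are chr3:96293920-96294219 for Fcgr1, chr1:171059354-171059653 for Fcgr3, chr1:171018676-171018975 for Fcgr4 and chr1:170976022-170976321 for Fcgr2b, all on the minus strand except that of Fcgr4.
Fcgr1 promoter: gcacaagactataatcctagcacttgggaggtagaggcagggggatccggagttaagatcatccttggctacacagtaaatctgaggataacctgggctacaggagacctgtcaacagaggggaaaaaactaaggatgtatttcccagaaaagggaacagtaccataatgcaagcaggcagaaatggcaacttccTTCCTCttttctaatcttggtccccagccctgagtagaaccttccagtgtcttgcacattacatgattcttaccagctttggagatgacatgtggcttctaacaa
Fcgr3 promoter: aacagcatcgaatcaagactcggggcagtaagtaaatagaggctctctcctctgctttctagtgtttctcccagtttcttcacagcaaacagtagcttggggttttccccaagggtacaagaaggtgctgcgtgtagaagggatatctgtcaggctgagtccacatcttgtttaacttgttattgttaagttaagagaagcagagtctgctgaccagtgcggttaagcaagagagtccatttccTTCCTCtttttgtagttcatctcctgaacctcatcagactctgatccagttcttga
Fcgr4 promoter: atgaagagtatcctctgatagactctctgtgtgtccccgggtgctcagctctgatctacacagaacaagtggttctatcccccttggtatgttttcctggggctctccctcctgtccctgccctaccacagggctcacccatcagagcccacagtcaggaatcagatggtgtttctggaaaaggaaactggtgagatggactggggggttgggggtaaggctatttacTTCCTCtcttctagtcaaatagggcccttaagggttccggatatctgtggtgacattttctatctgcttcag
Fcgr2b promoter: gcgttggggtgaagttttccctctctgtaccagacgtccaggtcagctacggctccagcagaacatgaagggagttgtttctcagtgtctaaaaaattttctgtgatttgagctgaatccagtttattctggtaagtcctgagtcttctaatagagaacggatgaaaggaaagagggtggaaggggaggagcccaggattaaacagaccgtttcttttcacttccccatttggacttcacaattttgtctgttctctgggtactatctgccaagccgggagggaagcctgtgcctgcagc

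The motif occurred once in each activating receptor window, on the opposite strand, where it is printed as TTCCTC, with its first printed base at -55 in Fcgr1, -6 in Fcgr3 and -22 in Fcgr4 relative to the start. It did not occur in the Fcgr2b window or in the Fcer1g window. Syk has a second RefSeq start, whose window held it at -9, and the first Syk window did not. The same letters on either strand occur in 28.3% of 32851 mouse promoter windows of this length, and the longer GAGGAAG, which contains them, in 13.6%. TTCNNNGAA, the palindromic letters of an interferon-gamma response element, occurred at -109 in the Fcgr1 window, in none of the other windows of the 6 members matched, and in 8.3% of all windows. Matches describe letters in these windows and nothing about binding. Only these exact letters were searched, so a window without a match may hold other sequences that PU.1 binds.

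The genes whose values over the 6 libraries were most like each member were ranked by the root mean square difference of log2(CPM + 0.5) relative to the chow mean, among 10651 genes. For Fcgr1 these were Cd300c2 at 0.09, Slc15a3 at 0.10 and Slfn2 at 0.10. For Fcgr3 they were Ly86 at 0.06, Tifab at 0.07 and Fermt3 at 0.07, and for Fcer1g they were Tnfrsf21 at 0.07, Cd300ld at 0.07 and Ifi207 at 0.08. Fcgr4 had less close neighbours, with Klra2 at 0.14, Synpo at 0.19 and Cd72 at 0.20. Tyrobp was closest to Evi2a, C1qb and Cd5l, each at 0.11, and Syk to Fstl1 at 0.08, C5ar1 at 0.08 and Lpcat2 at 0.10. The list for Fcgr2b held genes with little change, Fbxl18 at 0.04, Pip4k2c at 0.06 and Dhdds at 0.07.

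Ligands were measured in part. Of 13 listed immunoglobulin chain and pentraxin genes, 4 were in the tables and 3 were tested; IgG heavy chain genes were not analysed here. None of the 3 passed edgeR's quasi-likelihood test, 0 had an unadjusted p below 0.05, and DESeq2 and limma-voom called 0. Crp, a pentraxin that binds Fc gamma receptors, had 426, 382 and 552 CPM in high fat high sugar libraries, against 560, 461 and 422 CPM in chow libraries. Jchain, the joining chain of secreted IgM and IgA, had 2.27, 3.50 and 2.68 CPM in high fat high sugar libraries, against 6.56, 5.17 and 2.83 CPM in chow libraries, with an adjusted p of 0.155 in the same test. Apcs, which encodes the pentraxin serum amyloid P, had 144, 212 and 150 CPM in high fat high sugar libraries, against 158, 61.8 and 64.0 CPM in chow libraries. All 3 genes overlapped between diets, and chow replicate 1 stood above the other chow libraries for Apcs. The Apcs log2 fold change was 0.83 (adjusted p = 0.190, edgeR quasi-likelihood test), and without chow replicate 1 it was 1.41 (adjusted p = 0.0285, same test).

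Other Fc receptors gave few calls. Of 6 tested, 1 was higher and 1 was lower, where 11.0% of all tested genes were higher and 3.61% lower. Pigr, which encodes the epithelial receptor that carries IgA into bile, was lower, at 1530, 1250 and 1506 CPM in high fat high sugar libraries against 2425, 2348 and 2539 CPM in chow libraries. Its log2 fold change was -0.77 ± 0.19 (SE; adjusted p = 0.0345, edgeR quasi-likelihood test). Fcgrt, the neonatal Fc receptor that recycles IgG, had a log2 fold change of -0.21 with an adjusted p of 0.443 in that test. Fcrl1, a B cell Fc receptor-like gene, was higher by 2.03, but at 0.837 to 1.88 CPM in high fat high sugar libraries and 0.275 to 0.337 CPM in chow libraries. Fcer1a, the IgE-binding chain that shares Fcer1g on mast cells, had no count in any library.

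Of 24 listed receptors that signal through Fcer1g or Tyrobp, 11 were tested. Of these, 9 were higher and 0 lower, where 11.0% of all tested genes were higher and 3.61% lower. Their median log2 fold change was 2.12, against -0.02 over all tested genes. Some passed the filter on low counts through the high fat high sugar libraries, so the count and the median were partly set by the filter: the chow libraries held 3, 2 and 1 reads of Ncr1, 2, 1 and 4 of Clec5a, and 3, 4 and 6 of Sirpb1a. The 2 tested genes not called were Pilrb1 and Pilrb2, with log2 fold changes of 1.02 and 1.16. Trem2, a lipid-sensing receptor that pairs with DAP12, had 7.38, 31.9 and 6.70 CPM in high fat high sugar libraries, against 0.945, 0.330 and 0.135 CPM in chow libraries. No library of one diet reached the range of the other, and the log2 fold change was 4.98 ± 0.92 (SE; adjusted p = 0.0205, edgeR quasi-likelihood test), or 3.85 without high fat high sugar replicate 2. Cd300ld was higher by 1.78, Clec4n, which encodes Dectin-2, by 1.90, and Ncr1, the NK cell receptor NKp46, by 2.51 on the log2 scale. Clec4e and Clec4d, which encode Mincle and MCL, were below the filter on low counts, at 0.223 to 2.19 CPM and 0.206 to 1.54 CPM in high fat high sugar libraries.

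Receptors with their own ITAM-like tail and other ITAM chains had 3 of 5 tested higher, where 11.0% of all tested genes were higher. Clec7a, the beta-glucan receptor Dectin-1, had 36.4, 128 and 40.3 CPM in high fat high sugar libraries, against 8.0, 3.35 and 3.43 CPM in chow libraries. Its log2 fold change was 3.78, and those of Clec1b and Clec9a were 1.36 and 0.85. Cd79a and Cd79b, the ITAM chains of the B cell receptor, were not called, and the T cell chains Cd3d, Cd3e, Cd3g and Cd247 and the adaptor gene Hcst were below the filter.

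Inhibitory receptors other than Fcgr2b were higher in 15 of 17 tested, with 0 lower, where 11.0% of all tested genes were higher and 3.61% lower. Their median log2 fold change was 2.01. Some passed the filter on low counts through the high fat high sugar libraries, so the count and the median were partly set by the filter. Chow libraries 1, 2 and 3 held 9, 9 and 5 reads of Cd33, and 7, 3 and 14 of Milr1. Sirpa, which binds CD47 and restrains phagocytosis, had 68.4, 143 and 54.2 CPM in high fat high sugar libraries, against 20.8, 11.3 and 13.7 CPM in chow libraries, and its log2 fold change was 2.54. Lair1, a collagen receptor, was higher by 2.29, Clec4a2 by 2.47, Lilrb4a by 1.88 and Pirb by 1.51. Pecam1, which is expressed on endothelium and leukocytes, was higher by 0.95. Cd300lf was not called by edgeR's quasi-likelihood test (adjusted p = 0.103), while DESeq2 gave an adjusted p of 0.0491. Ceacam1 had a log2 fold change of -0.60 with an adjusted p of 0.0502 in edgeR's quasi-likelihood test and 0.0102 in DESeq2. Fcgr2b, at 0.20, lay between the 2 genes of that list not called, Ceacam1 at -0.60 and Cd300lf at 1.41. The called genes all lay above Fcgr2b, which their selection as higher made likely, and the difference was not tested.

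Of 12 tested kinases acting beside Syk, 6 were higher and 0 lower in edgeR's quasi-likelihood test. Over all tested genes, 11.0% were higher and 3.61% lower. The median log2 fold change of the 12 kinases was 0.74. Among them, the Src family genes Src, Fgr, Fyn and Lyn were higher by 2.08, 2.07, 0.77 and 0.70 on the log2 scale, and the Tec family gene Btk by 1.90. Csk, which switches Src kinases off, had 67.8 to 74.9 CPM in high fat high sugar libraries and 72.0 to 73.4 CPM in chow libraries. Zap70, the T and NK cell relative of Syk, had a log2 fold change of -1.82; its adjusted p was 0.0798 in edgeR's quasi-likelihood test, 0.00386 in DESeq2 and 0.0401 in limma-voom, so the other two tests called it lower.

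Downstream of Syk, 11 of 22 tested adaptors and enzymes were higher and 0 lower, where 11.0% of all tested genes were higher and 3.61% lower. The median log2 fold change of this list was 1.40. Lat2, which was among those higher, passed the filter on low counts through the high fat high sugar libraries. It had 10, 5 and 6 reads in chow libraries 1, 2 and 3. The adaptor gene Lcp2, which encodes SLP-76, was higher by 1.86, Gab2 by 1.60, the phospholipase gene Plcg2 by 2.03 and the exchange factor gene Vav1 by 1.84. Their more widely expressed relatives Plcg1 and Vav2 had values of -0.25 and -0.04. The Card9, Bcl10 and Malt1 genes, whose products form the complex that links Syk to NF-kappaB, were not called, at 1.20, -0.01 and 0.01.

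Of 14 phagocytosis and oxidase genes, 8 were higher and 0 lower, with a median of 1.85. The shares over all tested genes were 11.0% higher and 3.61% lower. Dock2 and Elmo1, which act on Rac, were higher by 2.20 and 1.99, and Cybb, the catalytic subunit of the phagocyte oxidase, by 2.38, at 63.1, 131 and 49.7 CPM in high fat high sugar libraries against 18.3, 12.0 and 16.7 CPM in chow libraries. Ncf1, another oxidase subunit, had a log2 fold change of 1.34 with an adjusted p of 0.0588 in edgeR's quasi-likelihood test. Among phosphatases and negative regulators, 7 of 13 were higher and 0 lower, with a median of 0.80. Inpp5d, the phosphatase recruited by the Fcgr2b ITIM, was higher by 2.14, Sla by 2.28, Dok1 by 1.84 and Ptpn6, which encodes SHP-1, by 0.68.

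**Figure D5:**
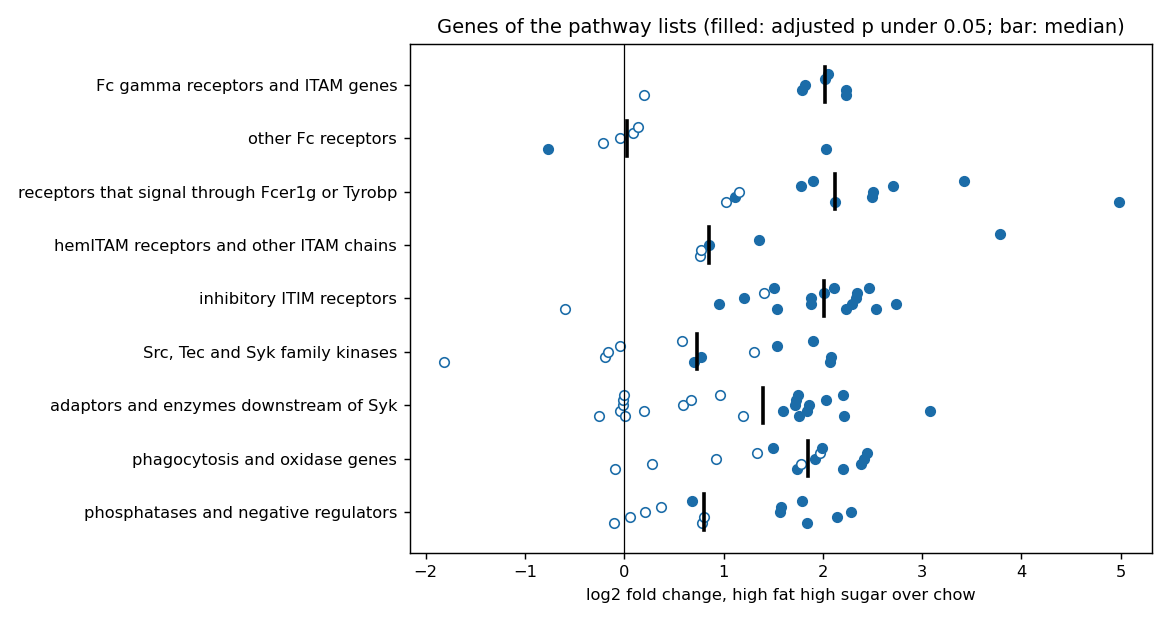
Log2 fold change, high fat high sugar over chow, of each tested gene of the 7 Fc gamma receptor and ITAM genes and of 8 related lists; filled points have an adjusted p below 0.05 and the bar is the list's median. The medians are 2.02 for the 7 genes, 2.12 for receptors that use Fcer1g or Tyrobp and 2.01 for inhibitory receptors. They are 0.74 and 0.80 for the kinases and the negative regulators. Some genes of the related lists passed the filter on low counts through the high fat high sugar libraries, which partly set those medians.

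These counts also depended on the chow libraries. Without chow replicate 3, no gene of these lists passed in edgeR's quasi-likelihood test. In that fit, 17 inhibitory receptors and 10 of the receptors using Fcer1g or Tyrobp nevertheless had an unadjusted p below 0.05. Without chow replicate 2, those lists had 2 and 1 genes higher, and without high fat high sugar replicate 2 they had 13 and 7.

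Markers of the cell types of liver and blood were set beside these values. All 10 leukocyte and macrophage markers were higher, with a median log2 fold change of 2.10 and summed levels of 869, 1495 and 708 CPM in high fat high sugar libraries against 339, 199 and 226 CPM in chow libraries. Sinusoidal endothelial markers were higher in 6 of 10, with a median of 0.65 and sums of 467, 431 and 484 CPM in high fat high sugar libraries against 258, 322 and 284 CPM in chow libraries. Of 8 monocyte and dendritic cell markers tested, 6 were higher, where 11.0% of all tested genes were. Some passed the filter on low counts through the high fat high sugar libraries, so that count was partly set by the filter. Chow libraries 1, 2 and 3 held 7, 4 and 6 reads of Flt3, and 9, 3 and 8 of Xcr1. Of 8 Kupffer cell markers 4 were higher and 2 were lower, Marco by a log2 fold change of -3.68 and Cd163 by -6.97. Neutrophil markers summed to 12.7, 40.0 and 12.5 CPM in high fat high sugar libraries and 8.95, 3.19 and 2.29 CPM in chow libraries. Of 4 tested, 0 passed in edgeR's test, 3 had an unadjusted p below 0.05, DESeq2 called 3 and limma-voom 0. Ly6g had 0, 4 and 0 reads in high fat high sugar libraries and 0 in every chow library. B and plasma cell markers had 0 of 6 called, with 1 at an unadjusted p below 0.05 and 0 by DESeq2 and limma-voom. Of 8 hepatocyte markers 1 was lower. Their sums were 98665, 42356 and 74249 CPM in high fat high sugar libraries, against 109306, 100751 and 119967 CPM in chow libraries. High fat high sugar replicate 2 had the lowest hepatocyte sum. Markers of cells other than leukocytes were higher as well: 5 of 6 hepatic stellate cell markers, with a median log2 fold change of 1.43, and 4 of 5 cholangiocyte markers, with a median of 2.16, each with 0 lower. Among the lists with few tested genes, Ncr1 was the 1 of 5 NK cell markers that was higher, Pf4 the 1 of 3 platelet markers and Kit the 1 mast cell and basophil marker tested, while Fcer1a and Tpsb2 were at 0 in every library. Of 2 T cell markers tested, 0 were called in edgeR's test, 1 had an unadjusted p below 0.05, and DESeq2 and limma-voom called 0. The part of cell composition in the changes of the receptor and ITAM genes was not tested.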

How the data were processed

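RNA-seq of polyadenylated liver RNA was analysed from 6 libraries, 3 per diet, made with a dUTP stranded kit per the labels' protocols. The deposited files hold raw counts of reads per gene symbol; STAR and mm10 are named in the submitters' processing notes, and no source used here gives the counting program, annotation or strand setting. Reads outside genes (7.74% to 10.6%) and ambiguous reads (0.615% to 0.862%) were left out.

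From the counts, edgeR 4.0.16 (R 4.3.3) was run with filterByExpr (minimum count 10), TMM scaling and a robust quasi-likelihood F test on all 6 libraries, without covariates, and p-values were adjusted by Benjamini-Hochberg over 12949 genes (threshold 0.05). Log2 fold changes are high fat high sugar over chow. CPM uses TMM-scaled library sizes. Alternatives were DESeq2 1.42.0, limma-voom 3.58.1, other scalings, no filter, a replicate block, and leaving out each library. Ratios were tested by exact two-sided permutation over libraries. The fits were checked on simulated data. Exon lengths came from GENCODE vM21 (GRCm38, the build of mm10); promoters of 6 of the 7 members were matched in the RefSeq table.

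The 7 members and the 22 other gene lists were chosen with earlier results of these data known. Besides the members, the text names the 3 genes with the smallest p in each pathway list, a fixed set of well-known genes of the pathway, and the 3 genes most like each member. Chromosome 1 neighbours were taken by position, and other genes named (such as Csk, Zap70, Cd22, Marco and Plcg1) were chosen after their values were seen. No 2 libraries agreed within sampling noise.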

Additional observations from a re-analysis of the deposited data

How the results depend on the processing

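Over all genes, the main test called 1428 higher and 468 lower. The lower count was 200 with library size scaling only, which moved the median of all genes by 0.27 and gave 1925 higher, 974 with DESeq2 (1811 higher), 327 with upper-quartile scaling (1649 higher), and 373 with limma-voom (997 higher). Leaving out 1 library gave 4 to 1664 higher and 2 to 772 lower, with the fewest without chow replicate 3, where the smallest adjusted p was 0.0416 and 1212 genes were under 0.1. The number of members called higher was 6 in the main test, 6 under the other scalings, tests and filter, and 0 to 6 when 1 library was left out. The replicate numbers did not pair the libraries (correlations of same-numbered deviations of -0.29, -0.20 and -0.01). With the replicate block, 282 genes were lower and 961 higher, and 2 members, Fcer1g and Syk, were called; Fcgr1, Fcgr3, Fcgr4 and Tyrobp had adjusted p of 0.0515, 0.0506, 0.0832 and 0.0791. The ratio of the members to leukocyte markers moved to -0.04 without Fcgr2b, and it was -0.56 without Lyz2 among the markers. The ratio of activating receptors to Fcgr2b ranged over 1.38 to 2.05 when 1 library was left out, and the difference in the Fcgr2b share, high fat high sugar minus chow, over -30.1 to -19.3 percentage points. Of the lists, limma-voom called 4 receptors using Fcer1g or Tyrobp against 9 in the main test, 5 genes downstream of Syk against 11, 5 phagocytosis genes against 8 and 2 monocyte markers against 6. Chow counts of single members were as low as 37 reads, and 3 libraries a diet allow no exact permutation p below 0.1. The causes of these shifts were not tested.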

Other observations

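B cell genes around ITAM signalling gave mixed values. Cd22 and Cd72, inhibitory receptors best known from B cells, were higher in high fat high sugar livers by 2.23 and 2.01 on the log2 scale, and the adaptor gene Blnk by 1.72, each with an adjusted p below 0.05 in edgeR's quasi-likelihood test. Cd22 had 4.70, 10.2 and 4.19 CPM in high fat high sugar libraries, against 1.33, 1.26 and 1.48 CPM in chow libraries. The B cell receptor chain genes Cd79a and Cd79b had log2 fold changes of 0.76 and 0.77 and were not called.

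Zap70, the T and NK cell relative of Syk, ran the other way from Syk. It had 4.75, 1.54 and 9.99 CPM in high fat high sugar libraries, against 18.6, 16.9 and 21.2 CPM in chow libraries, with a log2 fold change of -1.82 and an adjusted p of 0.0798 in edgeR's quasi-likelihood test, 0.00386 in DESeq2 and 0.0401 in limma-voom. The diets did not overlap. Cd3e, a T cell receptor chain, had 0.206, 1.12 and 0.279 CPM in high fat high sugar libraries, against 0.611, 0.0550 and 0.135 CPM in chow libraries, below Zap70 in each library.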
